A study of Homo sapiens with 6 samples.

Results

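The HOX cluster genes encode homeodomain transcription factors, and this account covers all protein-coding genes of the deposited tables whose symbol is HOXA, HOXB, HOXC or HOXD followed by a number. The rule used the gene symbols and class alone and found 39 of 60612 genes, 11 in the HOXA cluster on chromosome 7, 10 in HOXB on chromosome 17, 9 in HOXC on chromosome 12 and 9 in HOXD on chromosome 2. RNA sequencing covered 3 libraries labelled with the genotype ABCF1 and 3 labelled NC-1, all labelled as the liver tumour line HepG2. According to the series text the study made stable HepG2 lines that overexpress ABCF1 with lysines changed to arginines, whereas the sample labels name neither the form of ABCF1 nor what NC-1 carries, and they do not say whether a line was 1 clone or a pool. The labels do not tell whether replicates were grown as separate cultures, so each p-value reflects only how far these libraries spread, and that spread may be technical.

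HOX genes lie side by side in 4 clusters and are numbered as paralogue groups from 1, at the end of the cluster used towards the head, to 13, at the end used towards the tail. In the embryo they are switched on in that order and give cells their position along the body axis, and adult cells and cell lines often keep part of the pattern, which is why the set of active genes is called a HOX code. Polycomb complexes keep silent HOX genes off, MLL and trithorax complexes keep active ones on, and the proteins bind DNA together with TALE homeodomain partners of the PBX and MEIS families.

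Total counts ran from 62323034 to 77394510 per library. Of these the 39 HOX genes took 438, 453 and 459 CPM (counts scaled to the library total) in the libraries labelled ABCF1. In NC-1 they took 470, 486 and 478 CPM, with no overlap. With library size only, the median log2 fold change over all tested genes was itself -0.099. ABCF1 itself had 6406, 7442 and 7944 counts in the libraries labelled ABCF1, against 11583, 10098 and 10635 in NC-1. It was thus lower, though it did not pass the test (log2 fold change -0.57, SE 0.08, edgeR adjusted p = 0.25). The series text speaks of overexpression, and for that reason the wording "libraries labelled ABCF1" is used throughout. Of 15 liver markers 14 averaged under 1 RPKM (reads per kilobase of transcript, scaled to library size), with a highest single value of 0.179 RPKM for ALB, and HNF4A was the exception at 15.0 to 31.2 RPKM. The epithelial keratin KRT8 stood at 688 to 893 RPKM and the mesenchymal filament gene VIM at 767 to 842 RPKM, whereas epithelial CDH1 reached at most 0.0799 RPKM and mesenchymal FN1 at most 0.158 RPKM, and the blood marker PTPRC had no count. The summed liver markers ranged from 18.5 to 31.3 RPKM in the libraries labelled ABCF1 and from 15.1 to 26.9 RPKM in NC-1, nearly all of it HNF4A. The other liver markers thus go against the HepG2 label, and the HOX levels are described as those of the sequenced cells. ABCF1 replicate 3 and NC-1 replicate 2 stood apart from the other 4 libraries on the first principal component, at 47.2 and 42.0 against -29.3 to -6.96, so results that depend on them are given with and without them.

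The cells transcribed many HOX genes, and most of the summed level came from paralogue groups 9 to 13, at the tail end of the clusters. Averaged over the 6 libraries, 25 of the 39 genes reached 1 RPKM, 6 lay between 0.1 and 1 RPKM and 8 lay under 0.1 RPKM. HOXC10 was the most abundant member by far, at 42.9 RPKM on average, and ranked at place 1760 among 19937 protein-coding genes. HOXA10 followed with 18.9 RPKM, HOXA11 with 17.6 RPKM and HOXB7 with 14.7 RPKM. The lowest library of HOXC10 (40.9 RPKM) lay above the highest of HOXA10 (20.7 RPKM), whereas HOXA10, HOXA11 and HOXB7 overlapped in their ranges over the libraries. Just above the 1 RPKM line stood HOXB5 (1.11 RPKM) and HOXD11 (1.28 RPKM), and just under it HOXD3 (0.713 RPKM).

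**Figure D1:**
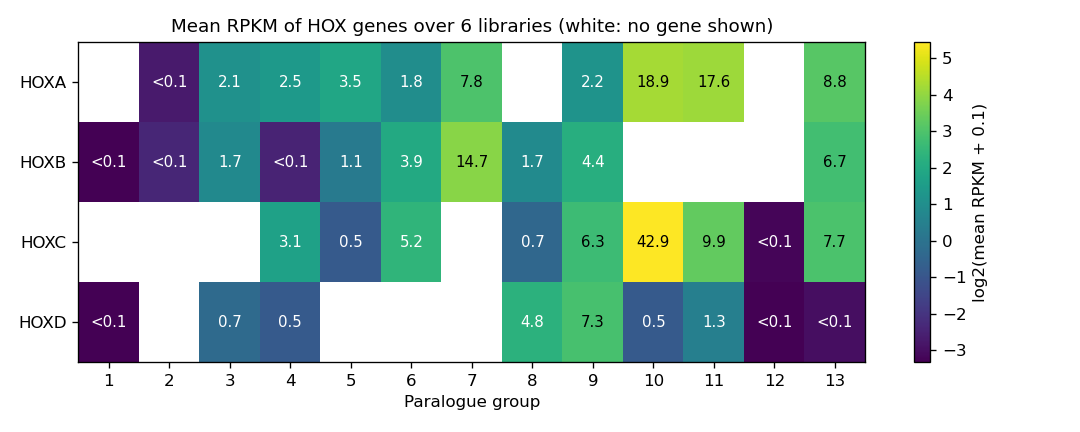
Mean RPKM of HOX genes over the 6 libraries, with clusters as rows and paralogue groups as columns; colour is log2(mean RPKM + 0.1), the number in each box is the mean RPKM and white boxes show no gene. The brightest box is HOXC10 at 42.9 RPKM, and the darkest boxes include paralogue groups 1 and 2 of HOXB, HOXC12 and the ends of HOXD.

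Paralogue groups 9 to 13 (16 genes) held 69.3% to 71.1% of the summed HOX RPKM in every library. Paralogue groups 4 to 8 (15 genes) held 25.9% to 28.4%, and paralogue groups 1 to 3 (8 genes) held 2.29% to 3.57%. Paralogue group 10 alone supplied 31.4% to 33.3%. Across genes, the Spearman correlation between paralogue number and mean RPKM was 0.83 for the 11 genes of HOXA, 0.84 for the 10 of HOXB, 0.35 for the 9 of HOXC and -0.13 for the 9 of HOXD. These correlations are descriptions over genes that share the same libraries and partly share exons. Within the clusters, paralogue groups 9 to 13 supplied 86.9% to 89.1% of the summed RPKM of HOXC over the 6 libraries, 70.9% to 74.0% of HOXA, 57.3% to 62.3% of HOXD and 27.03% to 34.9% of HOXB. HOXB had the smallest part of its level there, but it has only 2 genes in these groups, against 4 in HOXA and 5 each in HOXC and HOXD. Its peak was at HOXB7, although its levels went up with paralogue number. In each of the 4 clusters genes under 0.1 RPKM lay between or beyond genes at 1 RPKM or more.

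In the HOXC cluster, on the plus strand of chromosome 12 (GRCh38), 6 of 9 genes reached 1 RPKM. HOXC10, a lumbar and hindlimb gene (ENSG00000180818, chr12:53985065-53990279), stood at 42.8, 42.7 and 41.7 RPKM in the libraries labelled ABCF1 and at 44.6, 44.7 and 40.9 RPKM in NC-1, a log2 fold change of 0.08 (SE 0.08) in the counts. Its level was nearly the same in all 6 libraries, with the highest 1.09 times the lowest. HOXC11, next to it, stood at 9.11, 9.70 and 10.5 RPKM in the libraries labelled ABCF1 and at 11.3, 9.59 and 9.23 RPKM in NC-1 (log2 fold change 0.08, SE 0.11). HOXC13, which is needed for hair and nail, had 7.51, 7.23 and 8.25 RPKM in the libraries labelled ABCF1 and 8.16, 6.94 and 7.98 RPKM in NC-1 (0.10, SE 0.11). Between these active genes HOXC12 was almost without reads, with 0 counts in the 3 libraries labelled ABCF1 and 4, 9 and 0 counts in NC-1.

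HOXC9, a thoracic gene, stood at 6.64, 6.15 and 7.06 RPKM in the libraries labelled ABCF1 and at 5.84, 6.29 and 5.83 RPKM in NC-1 (log2 fold change 0.22, SE 0.12). HOXC6 had 5.11, 4.91 and 5.11 RPKM in the libraries labelled ABCF1 and 6.18, 4.47 and 5.35 RPKM in NC-1 (0.06, SE 0.12). HOXC4 had 3.32, 2.504 and 3.20 RPKM in the libraries labelled ABCF1 and 3.13, 2.77 and 3.59 RPKM in NC-1 (0.07, SE 0.16). For all 3 genes the groups overlapped on the RPKM scale. HOXC8 lay between 0.414 and 0.908 RPKM. HOXC5 was the most uneven HOX gene detected in every library, with 29, 94 and 158 counts in the libraries labelled ABCF1, against 75, 13 and 26 in NC-1, a 9.99-fold span in RPKM. HOXC4, HOXC5 and HOXC6 are read from overlapping transcripts and their split between genes is uncertain.

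The HOXA cluster, on the minus strand of chromosome 7, was active along nearly its whole length, with 9 of 11 genes at 1 RPKM or more. HOXA10, known for its part in the uterus, had 18.0, 17.6 and 17.5 RPKM in the libraries labelled ABCF1 and 18.9, 20.7 and 20.7 RPKM in NC-1 (log2 fold change -0.10, SE 0.10). HOXA11, which acts in the uterus and the forearm, had 16.9, 17.9 and 17.3 RPKM in the libraries labelled ABCF1 and 18.0, 17.7 and 17.9 RPKM in NC-1 (0.07, SE 0.085). HOXA11 was the steadiest HOX gene, its highest library 1.07 times its lowest. HOXA13, a gene of the digits and the genital tract (ENSG00000106031, chr7:27193503-27200091), had 8.12, 7.68 and 6.98 RPKM in the libraries labelled ABCF1 and 10.4, 10.3 and 9.59 RPKM in NC-1 (-0.32, SE 0.09), so that all libraries labelled ABCF1 lay below all NC-1 libraries. HOXA9, which acts in blood progenitors, had 1.49, 2.09 and 1.64 RPKM in the libraries labelled ABCF1 and 2.74, 2.39 and 2.62 RPKM in NC-1 (-0.42, SE 0.20), again with no overlap. In RPKM 16.3% of all tested genes were lower without overlap. Part of HOXA9 is shared with HOXA10, whose transcripts overlap it on the same strand.

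Towards the head end, HOXA7 had 7.72, 7.94 and 7.48 RPKM in the libraries labelled ABCF1 and 8.57, 7.61 and 7.44 RPKM in NC-1 (log2 fold change 0.08, SE 0.09). HOXA6 had 2.40, 1.203 and 1.08 RPKM in the libraries labelled ABCF1 and 2.41, 1.27 and 2.65 RPKM in NC-1 (-0.30, SE 0.39, and -0.73 to -0.095 with 1 library left out). HOXA5, a lung gene, had 3.51, 2.85 and 3.37 RPKM in the libraries labelled ABCF1 and 3.56, 3.73 and 4.13 RPKM in NC-1 (-0.16, SE 0.15). Of these, HOXA5 did not overlap between the groups in RPKM but did so in TMM-scaled CPM. On that scale each library total is first multiplied by its TMM factor from edgeR, so the values differ from plain CPM. HOXA4 had 1.83, 2.11 and 3.26 RPKM in the libraries labelled ABCF1 and 1.94, 2.74 and 3.21 RPKM in NC-1 (-0.11, SE 0.29). HOXA3, a gene of the thymus and parathyroid, had 1.81, 2.05 and 1.72 RPKM in the libraries labelled ABCF1 and 2.48, 1.82 and 2.46 RPKM in NC-1 (-0.16, SE 0.17). HOXA2, which patterns the middle and outer ear, had 0 to 19 counts per library.

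The HOXB cluster, on the minus strand of chromosome 17, had 7 of 10 genes at 1 RPKM or more and a peak at HOXB7. HOXB7 had 13.4, 13.8 and 16.9 RPKM in the libraries labelled ABCF1 and 12.8, 18.4 and 12.6 RPKM in NC-1 (log2 fold change 0.10, SE 0.19), and its highest libraries were the pair that stood apart. HOXB13, best known from the prostate, had 6.81, 7.24 and 7.004 RPKM in the libraries labelled ABCF1 and 6.52, 5.91 and 6.92 RPKM in NC-1 (0.22, SE 0.10). HOXB9 had 4.54, 4.36 and 3.96 RPKM in the libraries labelled ABCF1 and 4.499, 4.04 and 4.90 RPKM in NC-1 (0.03, SE 0.11). HOXB13 lies apart from the rest of its cluster, and its groups overlapped in RPKM but not in TMM-scaled CPM.

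HOXB6 had 3.62, 3.76 and 3.44 RPKM in the libraries labelled ABCF1 and 3.85, 3.605 and 5.06 RPKM in NC-1 (log2 fold change -0.04, SE 0.13). HOXB8 had 2.05, 1.34 and 1.72 RPKM in the libraries labelled ABCF1 and 1.51, 1.86 and 1.74 RPKM in NC-1 (0.02, SE 0.18). HOXB3 had 1.63, 1.72 and 1.05 RPKM in the libraries labelled ABCF1 and 1.90, 1.48 and 2.21 RPKM in NC-1 (-0.14, SE 0.17). All 3 genes overlapped between the groups. HOXB5 had 0.981, 0.909 and 1.04 RPKM in the libraries labelled ABCF1 and 1.47, 1.26 and 1.01 RPKM in NC-1 (-0.25, SE 0.21). At the head end HOXB1, a gene of the facial nerve nucleus, had no count in any library and HOXB2 had 4 to 23 counts per library. HOXB4, known from blood stem cells, comes between HOXB3 and HOXB5 in the cluster and had 0 to 27 counts per library. A count of 0 over 409052357 reads allows up to 0.00733 CPM (3 counts of the total, counting error only).

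The HOXD cluster, on the plus strand of chromosome 2, was the least used, with 3 of 9 genes at 1 RPKM or more. HOXD9 had 6.71, 7.39 and 7.82 RPKM in the libraries labelled ABCF1 and 7.41, 6.92 and 7.60 RPKM in NC-1 (log2 fold change 0.10, SE 0.12). HOXD8 had 4.47, 4.84 and 5.06 RPKM in the libraries labelled ABCF1 and 4.34, 5.80 and 4.28 RPKM in NC-1 (0.15, SE 0.14). These neighbours formed the active middle of the cluster, and the groups overlapped for both. HOXD11, which in the mouse acts with HOXA11 in the forearm and kidney, had 0.895, 1.145 and 1.575 RPKM in the libraries labelled ABCF1 and 1.18, 1.52 and 1.39 RPKM in NC-1 (-0.07, SE 0.27). HOXD10 lay between 0.268 and 0.541 RPKM, HOXD4 between 0.308 and 0.584 RPKM and HOXD3 between 0.373 and 1.30 RPKM. At the ends of the cluster HOXD1 and HOXD12 had no count in any library, and HOXD13, the digit gene, had 18 counts in ABCF1 replicate 3, 13 in NC-1 replicate 1 and 0 in the other 4 libraries.

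**Figure D2:**
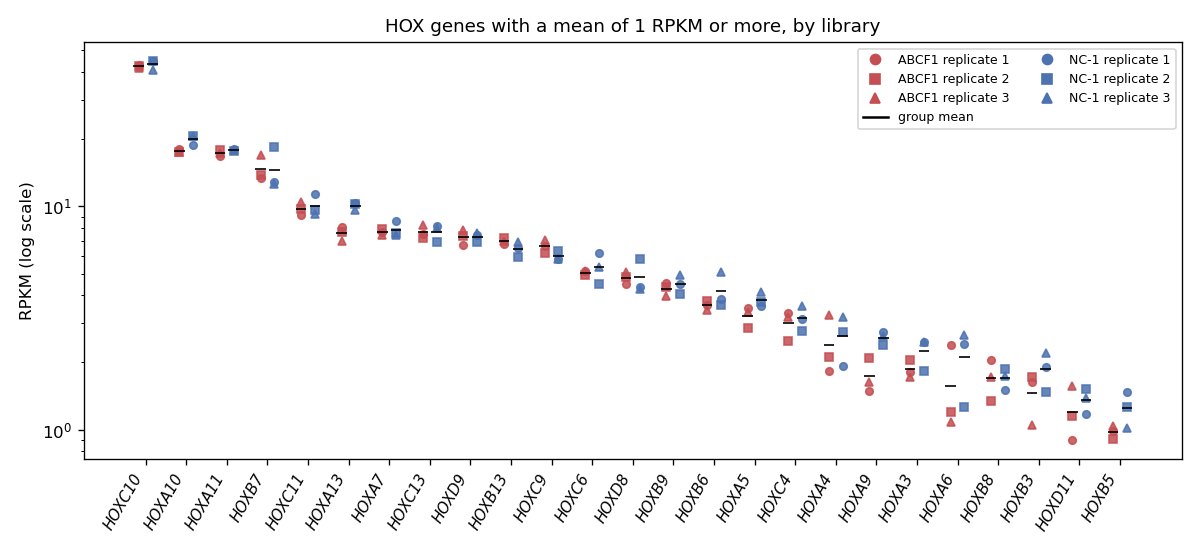
RPKM on a log scale of the 25 HOX genes that averaged at least 1 RPKM, ordered by mean; red marks are the libraries labelled ABCF1, blue marks NC-1, mark shapes are replicate numbers and black lines are group means. HOXC10 stands alone at the top. For HOXA13, HOXA10, HOXA9 and HOXA5 all red marks lie under all blue marks, as for 16.3% of all tested genes.

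Paralogue groups 6, 7, 9 and 11 had all their members at 1 RPKM or more, while groups 1, 2 and 12 had none. In group 10 the members were far apart, with 42.9 RPKM for HOXC10, 18.9 for HOXA10 and 0.452 for HOXD10, and in group 13 HOXA13, HOXC13 and HOXB13 lay between 6.74 and 8.84 RPKM on average while HOXD13 was at 0.0250. The deposited coordinates show 33 of the 39 genes overlapped by another gene, 25 of them by a gene on the opposite strand. Since any use of strand in the counting is not given in the sources used here, reads of a HOX gene and of its antisense partner cannot be told apart.

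RefSeq promoter windows (GRCh38.p14, 250 bases before to 50 after the start) were matched for 20 of the 39 genes. Among the others, HOXA5, HOXB2 to HOXB9, HOXB13, HOXC6, HOXC8 to HOXC13 and HOXD9 had no entry. The windows shown are those of active HOXA11 and HOXA13 and of HOXB1 and HOXD12, which had no count, because they set the sequence at active starts beside that at silent ones. Capitals mark the GC box GGGCGG, the TATA box TATAAA and the CCAAT box CCAAT, each searched on both strands, where neighbouring matches run together.
HOXA11 (chr7:27185183-27185482, minus strand): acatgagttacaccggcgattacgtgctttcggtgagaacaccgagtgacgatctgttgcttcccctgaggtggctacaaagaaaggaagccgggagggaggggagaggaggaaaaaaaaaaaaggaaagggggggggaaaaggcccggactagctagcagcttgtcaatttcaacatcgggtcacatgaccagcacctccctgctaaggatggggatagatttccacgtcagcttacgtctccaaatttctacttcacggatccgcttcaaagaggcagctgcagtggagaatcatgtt
HOXA13 (chr7:27200042-27200341, minus strand): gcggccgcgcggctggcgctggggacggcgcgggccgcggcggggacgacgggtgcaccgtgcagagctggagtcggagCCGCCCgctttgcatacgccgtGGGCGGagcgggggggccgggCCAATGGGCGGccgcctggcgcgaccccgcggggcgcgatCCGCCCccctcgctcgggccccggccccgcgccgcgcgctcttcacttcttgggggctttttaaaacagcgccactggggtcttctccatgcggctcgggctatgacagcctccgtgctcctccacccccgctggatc
HOXB1 (chr17:48530962-48531261, minus strand): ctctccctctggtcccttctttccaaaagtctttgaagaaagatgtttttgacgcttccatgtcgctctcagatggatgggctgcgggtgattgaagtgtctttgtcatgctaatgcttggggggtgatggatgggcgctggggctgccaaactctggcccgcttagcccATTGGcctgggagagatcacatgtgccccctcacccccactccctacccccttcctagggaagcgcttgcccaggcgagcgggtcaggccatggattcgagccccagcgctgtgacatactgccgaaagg
HOXD12 (chr2:176099545-176099844, plus strand): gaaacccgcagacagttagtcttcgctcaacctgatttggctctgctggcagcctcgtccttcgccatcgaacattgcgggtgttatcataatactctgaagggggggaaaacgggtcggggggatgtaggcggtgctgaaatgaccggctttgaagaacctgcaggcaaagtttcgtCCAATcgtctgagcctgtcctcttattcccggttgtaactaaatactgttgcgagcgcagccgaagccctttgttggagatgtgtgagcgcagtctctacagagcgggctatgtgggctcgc
The HOXA13 window holds 76.3% G and C and 44 CpG pairs, against 51.3% and 13 in HOXA11, 58.0% and 11 in HOXB1 and 54.3% and 19 in HOXD12. None of the 3 motifs occurs in the HOXA11 window.

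A CCAAT box stood in 17 of the 20 HOX windows, among them 8 of the 11 genes at 1 RPKM or more and all 9 below, and in 34.6% of all 35116 windows in the table. A GC box stood in 10 of 20 HOX windows against 45.0% of all, and a TATA box in 4 of 20 against 11.5%. The median ratio of observed to expected CpG was 0.91 in the 11 windows of genes at 1 RPKM or more and 0.75 in the 9 below, against 0.58 over all windows. HOXC4 and HOXC5 have the same window, with 3.09 and 0.459 RPKM. Some windows lie far from the deposited gene start, such as 9643 bases for HOXA9, and a match of letters is a description and not a bound site.

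HOXC supplied the largest share of the summed HOX RPKM, 40.6% ± 0.38 in the libraries labelled ABCF1 and 38.9% ± 1.36 in NC-1 (SD, n = 3 each). HOXA supplied 33.3% ± 1.02 in the libraries labelled ABCF1 and 35.7% ± 0.78 in NC-1. HOXB supplied 18.2% ± 0.37 in the libraries labelled ABCF1 and 17.7% ± 1.12 in NC-1, and HOXD 7.94% ± 0.64 in the libraries labelled ABCF1 and 7.75% ± 0.057 in NC-1. The sum over HOXA was 62.8, 62.4 and 61.1 RPKM in the libraries labelled ABCF1 and 70.3, 69.1 and 71.3 RPKM in NC-1, with no overlap. For HOXB, HOXC and HOXD the sums overlapped. The sum over all 39 genes was 184.6, 185.2 and 190.2 RPKM in the libraries labelled ABCF1 and 198.5, 196.8 and 194.9 RPKM in NC-1, with no overlap. On the RPKM scale lower genes prevail over the whole table, where 16.3% of tested genes were lower without overlap and 4.74% higher. The HOXA sum and the sum over all HOX genes are read beside that background. In counts not divided by length, HOXA came first with 39.5% and HOXC second with 37.4%.

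**Figure D3:**
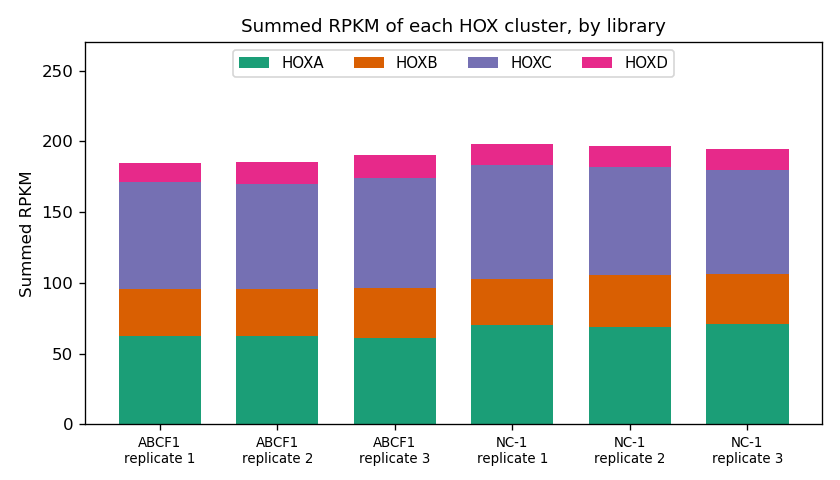
Summed RPKM of the genes of each HOX cluster in each library, stacked, with the libraries labelled ABCF1 on the left and NC-1 on the right. The HOXA part is 61.1 to 62.8 RPKM in the libraries labelled ABCF1 and 69.1 to 71.3 RPKM in NC-1, and the parts of the other clusters overlap between the groups.

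Between the libraries labelled ABCF1 and NC-1, the comparison asks whether the HOX code differs between the groups as labelled. No HOX gene passed the test. Of the 39 genes 32 had enough counts to be tested, and edgeR's quasi-likelihood test with adjustment over 16545 genes called 0 of them higher and 0 lower, as it did for all genes (0% called). The 7 genes not tested were HOXA2, HOXB1, HOXB4, HOXC12, HOXD1, HOXD12 and HOXD13. Without adjustment, 0 HOX genes were higher and 1, HOXA13, was lower at a p under 0.05, against 6.27% higher and 8.54% lower over all tested genes. The DESeq2 Wald test called 0 HOX genes higher and 1 lower, again HOXA13, while it called 1.47% of all genes higher and 2.31% lower. The median log2 fold change of the tested HOX genes was 0.067 with 20 positive and 12 negative, beside 0.00050 over all tested genes. With library size only the HOX median was -0.034, beside -0.099 over all genes, and with RPKM in limma-trend it was -0.041 beside -0.054 (pseudocount of 1) and -0.044 beside -0.085 (pseudocount of 0.1), so that the whole table moved down with it. The HOX median was negative and the median of all genes positive with each library's trend with transcript length and GC content removed (-0.072 beside 0.016, and -0.061 beside 0.016 with the library set) and without ABCF1 replicate 3 (-0.0014 beside 0.0012). Without the pair of libraries that stood apart it was -0.023 beside -0.0055.

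**Figure D4:**
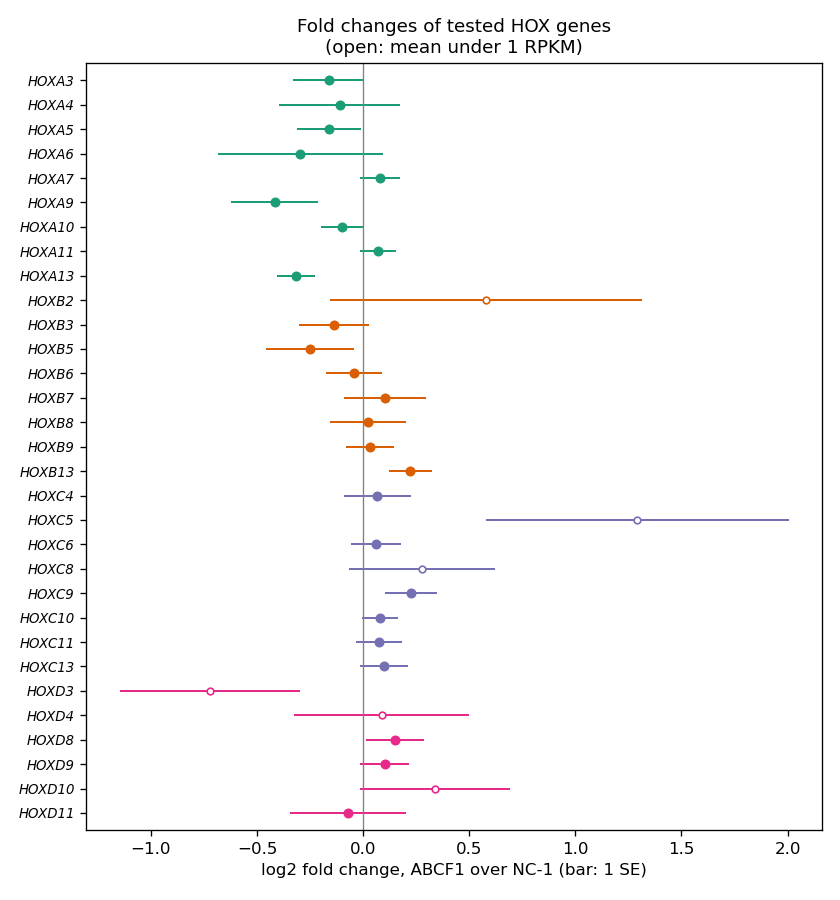
log2 fold change, the libraries labelled ABCF1 over NC-1, of tested HOX genes from the edgeR fit, in cluster order with colours for clusters, bars of 1 SE and open marks for genes with a mean under 1 RPKM. HOXA13 (-0.32, SE 0.09) lies farthest from 0 in units of its SE. The widest bars belong to HOXB2, which has few counts, and to HOXC5, whose libraries differ widely within each group.

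HOXA13 was lower in the libraries labelled ABCF1 in every setting tried, with log2 fold changes from -0.42 to -0.17. It had 43.4, 41.9 and 40.6 TMM-scaled CPM in the libraries labelled ABCF1, against 51.0, 55.4 and 50.4 in NC-1. The edgeR adjusted p was 0.26 and did not pass. HOXA13 passed in the DESeq2 Wald test (-0.31, adjusted p = 0.037), in edgeR with the library set as a covariate (-0.32, SE 0.06, adjusted p = 0.0052) and in edgeR without the pair that stood apart (-0.25, SE 0.06, adjusted p = 0.041), a fit that called 5.68% of all genes higher and 5.10% lower. The library set separates the pair that stood apart from the other 4 libraries and was read from the same counts. HOXA13 did not pass where each library's trend with transcript length and GC content was removed (-0.17, SE 0.10, edgeR adjusted p = 0.64), nor with the library set added to that (-0.17, SE 0.06, edgeR adjusted p = 0.11), where 5.15% of all genes were called higher and 1.66% lower. The longest HOXA13 transcript has 5030 bases and 43.8% GC, the lowest GC among the 39 genes, whose tested members have a median of 55.2%, and over all tested genes higher fold changes went with higher GC content (Spearman rho across genes 0.49), which was not so over the 32 tested HOX genes (rho 0.02). In bulk samples fewer cells that express a gene and less RNA per cell cannot be told apart.

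With the library set as a covariate edgeR called 1 of 32 HOX genes lower, HOXA13, and 0 higher, whereas it called 12.5% of all tested genes lower and 12.9% higher. In TMM-scaled CPM 2 HOX genes were higher without overlap (HOXB13 and HOXC9), against 10.7% of all tested genes. On that scale 2 were lower without overlap (HOXA9 and HOXA13), against 12.4%. With the length and GC trend removed the fold change of HOXB13 was 0.10 and that of HOXC9 0.073, against 0.22 for each without that step. In RPKM 1 was higher (HOXD10, against 4.74%) and 4 were lower (HOXA5, HOXA9, HOXA10 and HOXA13, against 16.3%).

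The pair of libraries that stood apart also differed from the other 4 in some HOX genes. In TMM-scaled CPM HOXB7, HOXB8, HOXC8, HOXD8 and HOXD11 lay above all the other 4 libraries in both ABCF1 replicate 3 and NC-1 replicate 2. No HOX gene lay below them in both. Over all tested genes 17.2% lay above and 18.9% below in that pair. HOXB7 had 27.02 and 27.09 TMM-scaled CPM in the pair and 17.8 to 21.1 in the rest.

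The long noncoding RNAs of the clusters, many of them antisense to HOX genes, were transcribed from HOXA, HOXC and HOXD and almost without reads in HOXB, and none of the 14 tested passed edgeR (0% of all genes called). All 18 listed were found, 13 at a mean of 0.5 RPKM or more. HOTAIRM1, a noncoding RNA of the HOXA cluster, was the most abundant, at 23.8, 20.3 and 26.9 RPKM in the libraries labelled ABCF1 and 24.9, 30.4 and 21.5 RPKM in NC-1 (log2 fold change -0.04, SE 0.18). HOXA11-AS stood at 15.6, 18.3 and 22.9 RPKM in the libraries labelled ABCF1 and 17.6, 17.2 and 13.9 RPKM in NC-1 (0.32, SE 0.17, and 0.12 with the length and GC trend removed and the library set added). HOTAIR, which is read antisense to HOXC11 and is known for binding Polycomb, had 1.57, 2.26 and 1.61 RPKM in the libraries labelled ABCF1 and 1.95, 1.66 and 1.94 RPKM in NC-1 (-0.30, SE 0.18). The groups overlapped for all 3.

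HOXA10-AS had 6.55, 6.70 and 7.54 RPKM in the libraries labelled ABCF1 and 6.18, 5.87 and 5.68 RPKM in NC-1 (log2 fold change 0.33, SE 0.13, edgeR adjusted p = 0.31). Its fold change was 0.15 (edgeR adjusted p = 0.48) with the length and GC trend removed and the library set added. Its libraries labelled ABCF1 all lay above NC-1 in RPKM, as for 4.74% of all tested genes, while HOXA10 and HOXA9, which it overlaps on the opposite strand, had negative fold changes. HAGLROS had 8.86 to 12.9 RPKM over the 6 libraries, HOXD-AS2 4.31 to 7.52, HOXC-AS3 2.76 to 4.70, HOXC-AS2 2.83 to 3.50, HOXA-AS2 1.73 to 2.18 and HAGLR 1.40 to 1.71, with its 3 libraries labelled ABCF1 all below NC-1, as for 16.3% of all tested genes. HOTTIP, at the tail end of HOXA and known for recruiting WDR5, had 1.05 to 1.88 RPKM, HOXC-AS1 0.812 to 2.36 and HOXC13-AS 0.673 to 0.929. In HOXB, HOXB-AS1 and HOXB-AS2 had no count and HOXB-AS3 and HOXB-AS4 had 11 and 3 counts in all.

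**Figure D5:**
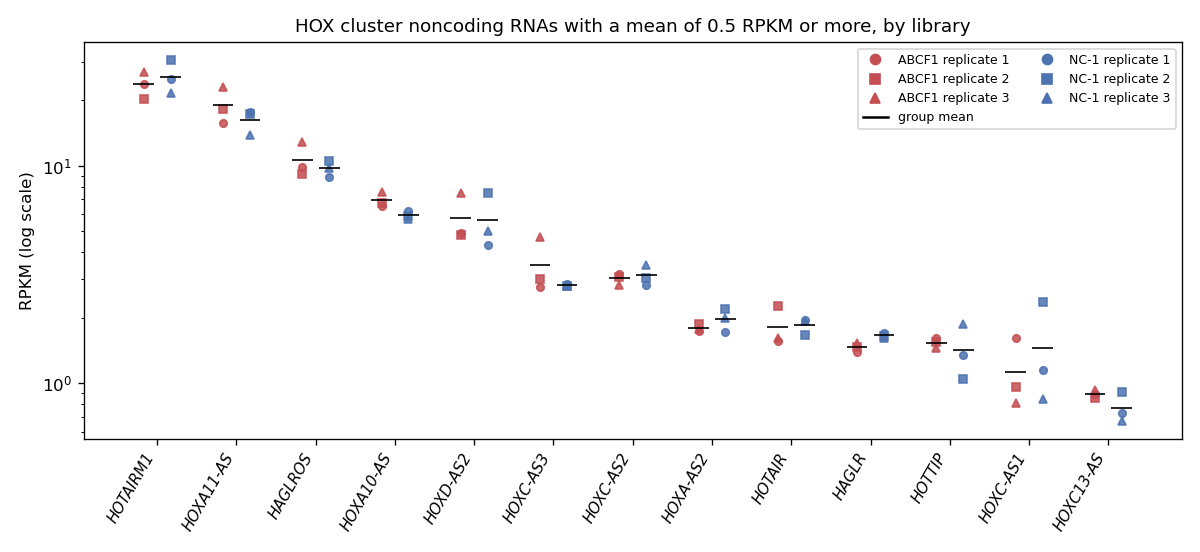
RPKM on a log scale of the 13 noncoding RNAs of the HOX clusters with a mean of 0.5 RPKM or more; red marks are the libraries labelled ABCF1, blue marks NC-1, mark shapes are replicate numbers and black lines are group means. HOTAIRM1 and HOXA11-AS stand highest. HOXA10-AS has all red marks above all blue ones, as for 4.74% of all tested genes, and HAGLR all red marks below, as for 16.3%.

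The clusters also hold microRNA genes that are known to act on HOX transcripts. Mature RNAs of this size are not measured by these libraries, and the hairpin rows took 53 counts for MIR196A1, which lies inside HOXB7, 10 for MIR196A2, 6 for MIR196B, 3 each for MIR10B and MIR615 and 0 for MIR10A over all libraries. The RefSeq sequences (GRCh38.p14) are shown because the 3 miR-196 genes, in 3 different clusters, share their seed, bases 2 to 8, given in capitals, with miR-10a-5p for contrast.
miR-196a-5p (chr17:48632532-48632553, minus strand, and chr12:53991762-53991783, plus strand): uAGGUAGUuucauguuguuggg
miR-196b-5p (chr7:27169528-27169549, minus strand): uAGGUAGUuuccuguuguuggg
miR-10a-5p (chr17:48579904-48579926, minus strand): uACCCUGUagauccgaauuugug
The reverse complement of the miR-196 seed, ACTACCT, was searched on the transcript strand in the 3' untranslated part of the longest coding transcript of each gene in GENCODE 29. It was found in 8 of 39 HOX genes, namely HOXA5, HOXA7, HOXA9, HOXB1, HOXB6, HOXB7, HOXB13 and HOXC8, and in 6.74% of 19669 genes, whose untranslated parts average 1687 bases against 1070 in the HOX genes. The sites with the most bases complementary to miR-196a-5p in HOXA7 and HOXB7 and both sites of HOXC8 are shown with the seed match in capitals.
HOXA7 (chr7:27154430-27154451, minus strand): cctactcccctaaaACTACCTa
HOXB7 (chr17:48607614-48607635, minus strand): aacactgaaaaaatACTACCTa
HOXC8 (chr12:54011495-54011516, plus strand): cactcacaactctaACTACCTg
HOXC8 (chr12:54012231-54012252, plus strand): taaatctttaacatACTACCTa
Of the 22 bases, 15 are complementary in HOXA7, 13 in HOXB7 and 12 in each HOXC8 site. The genes with a match span the whole range of levels, HOXB1 without a count and HOXB7 at 14.7 RPKM.

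The partners of HOX proteins were present. Of 9 TALE genes 8 reached 1 RPKM, led by MEIS3 at 25.2 ± 0.285 RPKM in the libraries labelled ABCF1 and 24.2 ± 0.66 RPKM in NC-1 and PBX2 at 20.6 ± 1.02 RPKM in the libraries labelled ABCF1 and 20.2 ± 2.34 RPKM in NC-1 (SD, n = 3 each), and PKNOX2 had no count. Of the 8 tested none was called by edgeR (median log2 fold change 0.015), beside 0% of all genes. With the library set 1 was lower, PBX3 (-0.28), beside 12.5% of all tested genes. The genes that flank the clusters included silent ones, EVX2 beyond HOXD13 with no count and EVX1 beyond HOXA13 with 5 counts in all, next to active HOXA13. PRAC1 and PRAC2, which lie beside HOXB13, had 7 and 6 counts in all, while HOXB13 itself had 9264. The leading flanking genes were HNRNPA1 and TAX1BP1. HNRNPA1 stood at 392 ± 49.96 RPKM in the libraries labelled ABCF1 and 406 ± 96.7 RPKM in NC-1. TAX1BP1 stood at 42.5 ± 5.36 RPKM in the libraries labelled ABCF1 and 50.8 ± 1.31 RPKM in NC-1. Of the flanking genes edgeR called 0 of 12 tested, beside 0% of all genes. With the library set 2 of the 12 were called higher and 4 lower, beside 12.9% and 12.5% of all tested genes. With the GC and length offset also applied 1 was higher (ATP5MC3, 0.45, edgeR adjusted p = 0.0012) and 0 lower, beside 5.15% and 1.66%. The DESeq2 Wald test called 2 lower, beside 2.31%. PBX3, ATP5MC3, EVX1, EVX2, PRAC1 and PRAC2 were picked after their values were seen.

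The complexes that hold HOX genes on or off were transcribed throughout. All 32 Polycomb genes and all 22 MLL, trithorax and demethylase genes stood at 1 RPKM or more. Beside 0% of all genes, edgeR called none of them. The DESeq2 Wald test called 1 Polycomb gene lower, beside 2.31% of all tested genes, and none of the MLL and trithorax list. RBBP7, a histone-binding subunit of PRC2, had 111 ± 0.20 RPKM in the libraries labelled ABCF1 and 127 ± 6.14 RPKM in NC-1 (log2 fold change -0.08, SE 0.08). WDR5, a core subunit of the MLL complexes, had 46.4 ± 0.78 RPKM in the libraries labelled ABCF1 and 47.5 ± 2.15 RPKM in NC-1 (0.06, SE 0.08), and DPY30 had 33.1 ± 7.49 RPKM in the libraries labelled ABCF1 and 33.8 ± 7.81 RPKM in NC-1 (0.08, SE 0.22). With the library set as a covariate 3 of 32 Polycomb genes were called higher and 9 lower, and of the 22 MLL and trithorax genes 0 were higher and 6 lower, beside 12.9% and 12.5% of all tested genes. With the GC and length offset also applied, 1 of the Polycomb list (SUZ12, -0.21) and 3 of the MLL and trithorax list (KMT2A, -0.35, KMT2C, -0.29, and ASH1L, -0.27) were still lower, beside 1.66% of all genes; these 4 were named after their values were seen.

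Retinoic acid, the signal that switches on head-end HOX genes in the embryo, had 11 of 19 listed genes at 1 RPKM or more, led by the binding protein CRABP2 at 133 ± 14.01 RPKM in the libraries labelled ABCF1 and 131 ± 10.9 RPKM in NC-1 and the nuclear receptor NR2F1 at 34.05 ± 2.81 RPKM in the libraries labelled ABCF1 and 39.04 ± 2.29 RPKM in NC-1. Of the ParaHox genes, the evolutionary relatives of the HOX clusters, CDX1, CDX2, CDX4, GSX1, GSX2 and PDX1 had no count, and were picked after their values were seen. MNX1 led the list of ParaHox and similar homeobox genes at 6.43 ± 0.37 RPKM in the libraries labelled ABCF1 and 5.77 ± 0.50 RPKM in NC-1, followed by DLX4 at 5.12 ± 0.29 RPKM in the libraries labelled ABCF1 and 5.14 ± 0.66 RPKM in NC-1. Beside 0% of all genes, edgeR called 0 of 13 tested genes in each of these lists. For the ParaHox list this held in the other fits too, with the library set, with that set and the offset for GC and length together, and in the DESeq2 Wald test. Of the retinoic acid list 2 genes were called higher and 1 lower with the library set, beside 12.9% and 12.5% of all tested genes. With the GC and length offset also applied 1 was lower (RDH10, -0.40, edgeR adjusted p = 0.045, named after its values were seen), beside 1.66%. The DESeq2 Wald test called 1 lower, beside 2.31%.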

How the data were processed

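RNA was extracted with Trizol and libraries were made with a TruSeq RNA kit, per the labels' protocols. The authors deposited a table of gene counts, whole numbers without normalization, and a table of RPKM for the same 60612 genes and 6 libraries. The submitters' processing notes name GRCh38, HISAT2, StringTie, Trimmomatic, FastQC, edgeR and CASAVA 1.8, without roles. For annotation release, strand and counting settings, the answer is not given in the sources used here. Levels are the deposited RPKM. Tests on the counts used edgeR 4.0.16 under R 4.3.3 (quasi-likelihood test, TMM, filterByExpr, no covariate, two-sided, Benjamini-Hochberg over 16545 genes, called at an adjusted p under 0.05), with SEs obtained by dividing the absolute log2 fold change by the root of F. The fit was tested on simulated counts, drawn independently for each library. These held no pair of libraries that stands apart, so that test does not cover this feature of the data. Alternatives were other scalings, no filter, the DESeq2 1.42.0 Wald test, limma 3.58.1 on log2(RPKM + 1) and log2(RPKM + 0.1), which understates the change of low genes, a block for the replicate number, leaving out each library, the library set, and per-gene offsets from each library's spline trend with length and GC of the longest GENCODE 29 transcript. Those values exist for 58394 genes and all 39 HOX genes. Library pairs of a group differed beyond sampling noise (chi-square per degree of freedom of at least 11.4). The HOX members, the related lists and the tests were chosen with earlier results of these data known. Every HOX gene with a mean of 1 RPKM or more is given with all its values, others by range; from related lists the called members or, failing 2, the 2 most abundant, and HOX noncoding RNAs from 0.5 RPKM. The values of 2 genes that this rule names are not reported here. For genes with many counts the spread between libraries, and not the total counts of 62323034 to 77394510, limits the precision. For genes with few counts, such as HOXB2 with 66 in all, counting error limits it too. Intervals and floors cover counting error only.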

Additional observations from a re-analysis of the deposited data

How the results depend on the processing

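Over the 17 other fits the 25 HOX genes given with a fold change gave 425 pairs of gene and setting, of which 355 kept their direction and their side of the threshold, 67 changed sign without being called and 3, all of HOXA13, passed. The count of genes called, 0 higher and 0 lower, moved to 243 and 383 with the DESeq2 Wald test, 2129 and 2064 with the library set, 950 and 853 without the pair that stood apart, and 843 and 271 with the length and GC offset and the library set. HOX genes called lower moved from 0 to 1 with the first 3 of these (HOXA13 at -0.31, -0.32 and -0.25). At an adjusted p under 0.01 the counts stayed at 0. The replicate block called 0 HOX genes, with a HOX median of 0.066. Same-numbered libraries correlated at 0.11, -0.11 and -0.15 in their deviations from the group means. The highest of all such correlations, 0.26, was that of the pair that stood apart, which carries different numbers. With that pair present, these values cannot tell whether same-numbered libraries were prepared together.

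Fold changes near 0 changed sign. With library size only and both RPKM fits the median over all genes was itself at -0.099, -0.054 and -0.085, so sign changes there include a shift of the whole table. With the length and GC offset they were HOXA7 -0.043, HOXA11 -0.062, HOXB8 -0.14, HOXB9 -0.094, HOXC6 -0.017, HOXC10 -0.027, HOXC11 -0.0014, HOXC13 -0.060, HOXD8 -0.022 and HOXD9 -0.081, and with the library set added -0.043, -0.063, -0.14, -0.094, -0.017, -0.028, -0.0050, -0.059, -0.021 and -0.078 for the same genes. With library size only they were HOXA7 -0.019, HOXA11 -0.031, HOXB8 -0.077, HOXB9 -0.067, HOXC4 -0.037, HOXC6 -0.040, HOXC10 -0.019, HOXC11 -0.026, HOXC13 -0.0058 and HOXD9 -0.0017. With limma-trend they were, for the same genes, -0.024, -0.041, -0.0058, -0.051, -0.057, -0.059, -0.031, -0.035, -0.0037 and -0.0016 on log2(RPKM + 1) and -0.027, -0.044, -0.014, -0.061, -0.073, -0.067, -0.032, -0.038, -0.0039 and -0.0020 on log2(RPKM + 0.1). Without the pair that stood apart, HOXC4 was at -0.040, HOXC6 -0.046, HOXC11 -0.0032, HOXC13 -0.041 and HOXD9 -6.4e-05. Leaving out 1 library at a time gave -0.35 to 0.077 for HOXA4, -0.085 to 0.031 for HOXB6, -0.038 to 0.32 for HOXB7, -0.056 to 0.12 for HOXB8, -0.023 to 0.11 for HOXB9, -0.0030 to 0.16 for HOXC4 and -0.34 to 0.11 for HOXD11. The cause of the other changes was not tested.

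Shares of counts in place of RPKM were 39.5% for HOXA, 16.4% for HOXB, 37.4% for HOXC and 6.77% for HOXD, since counts grow with transcript length. The number of HOX genes taken as active was 25 at 1 RPKM, 28 at 0.5 RPKM, 20 at 2 RPKM and 29 at 1 TPM. For HOXB2, HOXC5 and HOXD3, with 66, 395 and 434 counts in all, the SE of the log2 fold change was 0.73, 0.71 and 0.42. Differences of that size could not be told from the spread.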
